A study of Mus musculus with 41 samples.

Results

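Metallothioneins and zinc transporters were examined as 5 genes: the metallothioneins Mt1 and Mt2, the zinc exporter Slc30a1, and the zinc importers Slc39a8 and Slc39a14. They were taken by gene name from the arrays, where they had 10 probes on 19 spots, out of 41174 probes on 43379 spots for 27962 gene names. The tissues were part of the lung and part of the liver of adult female C57BL/6 mice (C57BL/6BomTac in the study's methods). Exposed mice inhaled nanoTiO2 (surface-coated titanium dioxide nanoparticles) at 40 mg/m3 for 1 h a day on 11 consecutive days, and control mice inhaled filtered air. All mice were time-mated but had not become pregnant, and both tissues were taken 5 days after the last exposure. The labels call this time equivalent to GD4 (a gestation day), which lies before the exposure days that the paper gives. There were 7 exposed and 6 control lungs, and 7 exposed and 8 control livers, each from 1 mouse on 1 array. Both tissues were measured in 12 of the mice, 6 exposed and 6 control.

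Metallothioneins are small cysteine-rich proteins that bind zinc, copper and cadmium in the cytoplasm and so buffer free metal. Their genes are switched on by the zinc-sensing factor Mtf1 through short metal response elements, and in the liver also by glucocorticoids, fasting and the cytokine interleukin-6. Slc30a1 (ZnT1) moves zinc out of the cell across the plasma membrane and is another Mtf1 target. Slc39a8 (ZIP8) and Slc39a14 (ZIP14) are close relatives that carry zinc, manganese, iron and cadmium into the cell, and Slc39a14 is known as a liver transporter that rises in the acute-phase response.

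The sequences before the metallothionein genes are shown because Mt1 and Mt2 varied together in the liver, and that of Slc30a1 because it shares their regulator. Each runs from 250 bases before to 30 bases after the start of the RefSeq transcript in build GRCm38.p6, all on the plus strand: chr8:94178839-94179118 for Mt1, chr8:94172368-94172647 for Mt2 and chr1:191906531-191906810 for Slc30a1. Capitals mark the core of the metal response element, searched on both strands as TGCACNC and TGCGCNC, where N is any base and a place that fits on both strands was counted once.
Mt1: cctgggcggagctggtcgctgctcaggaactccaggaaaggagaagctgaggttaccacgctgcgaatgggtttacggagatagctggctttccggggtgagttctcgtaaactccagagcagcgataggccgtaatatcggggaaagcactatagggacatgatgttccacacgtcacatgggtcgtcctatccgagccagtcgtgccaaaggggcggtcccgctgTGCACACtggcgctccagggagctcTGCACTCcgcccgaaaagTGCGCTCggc
Mt2: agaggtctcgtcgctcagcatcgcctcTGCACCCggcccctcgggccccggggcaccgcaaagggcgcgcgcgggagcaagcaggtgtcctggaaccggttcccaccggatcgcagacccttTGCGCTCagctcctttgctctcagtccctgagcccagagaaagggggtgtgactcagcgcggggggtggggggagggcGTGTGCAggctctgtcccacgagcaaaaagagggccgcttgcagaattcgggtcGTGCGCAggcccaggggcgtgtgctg
Slc30a1: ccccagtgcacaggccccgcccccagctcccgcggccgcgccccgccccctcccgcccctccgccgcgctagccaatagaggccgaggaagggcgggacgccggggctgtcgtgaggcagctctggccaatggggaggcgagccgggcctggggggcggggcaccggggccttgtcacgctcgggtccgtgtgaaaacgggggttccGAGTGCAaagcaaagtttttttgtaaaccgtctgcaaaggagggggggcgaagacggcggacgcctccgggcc
The Mt1 window held 3 matches, the Mt2 window 4 and the Slc30a1 window 1. Among all 32851 RefSeq windows of 280 bases, 24.1% held at least 1 match, 1.73% at least 3 and 0.405% at least 4. Counted in bases before the transcript start, the Mt1 matches began at 23, -2 and -20. The Mt2 matches began at 223, 128, 50 and -4, negative values lying after the start. The search was widened to 280 bases after the first matches were seen. The counts depend on that choice, and the shares are no test of how rare they are. Slc39a8 had a pair of windows, 1 with no match and 1 with 1 match. Slc39a14 had no entry. The antioxidant response core TGACNNNGC, found in 11.5% of windows, matched once before Mt2, once before Slc30a1 and once in the first Slc39a8 window, and not in the Mt1 window. The STAT core TTCNNNGAA, found in 7.83% of windows, matched in none of these windows. A match is a stretch of letters and not a measured binding site.

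Mt1 was measured mainly by a probe printed on 10 spots of each array, which lies at chr8:92769155-92769214 on the plus strand of build mm7. Its sequence is shown because it displays the feature that defines the protein family: in the reading frame that starts at its base 3, 6 of 19 triplets code for cysteine (capitals) and 0 are stop codons.
Mt1 probe: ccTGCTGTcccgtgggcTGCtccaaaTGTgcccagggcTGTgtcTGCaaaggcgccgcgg
The Mt2 probe lies at chr8:92762515-92762574, on the same strand and chromosome, and its longest run of bases shared with the Mt1 probe was 5, or 6 against the other strand. Levels are given below as the log2 ratio of the sample, labelled with Cy5, over a universal mouse reference RNA from 11 cell lines, labelled with Cy3, the same on every array. A ratio of 0 means as much signal as in the reference, and levels of different genes cannot be set against each other. Where a gene had several probes, the one with the highest mean signal over the 28 arrays is reported first. In these bulk samples, fewer cells of a type and less RNA per cell cannot be told apart.

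The tissues matched their labels. The mean log2 ratio over 7 probes of lung epithelium markers (such as Sftpc) lay between 4.85 and 5.38 in lungs and between 0.12 and 0.55 in livers. Over 6 hepatocyte marker probes (such as Alb1) it lay between 5.15 and 5.65 in livers and between 0.53 and 2.90 in lungs. The share of spots with Cy5 signal well over background ranged from 55.1% to 70.5% across arrays, and the number of arrays limits the precision. No metallothionein or transporter spot was saturated.

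Over the whole array, 90 of 41172 probes (0.219%) differed between exposed and control lungs at an adjusted p under 0.05 in limma's test (0.197% higher and 0.0219% lower), and 0 of 41174 (0%) between exposed and control livers. Of the 10 probes of the 5 genes, 0 passed this threshold in the lung and 0 in the liver, and 0 passed for the difference between the lung and the liver effect, where 0.148% of all probes did (0.136% higher and 0.0121% lower). At an unadjusted p under 0.05 there were 2 of 10 in the lung, 0 of 10 in the liver and 1 of 10 for the difference, against 7.06%, 2.59% and 4.38% of all probes. The question for each gene is whether inhaled nanoTiO2 changed its mRNA in the exposed organ or in the liver.

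**Figure D1:**
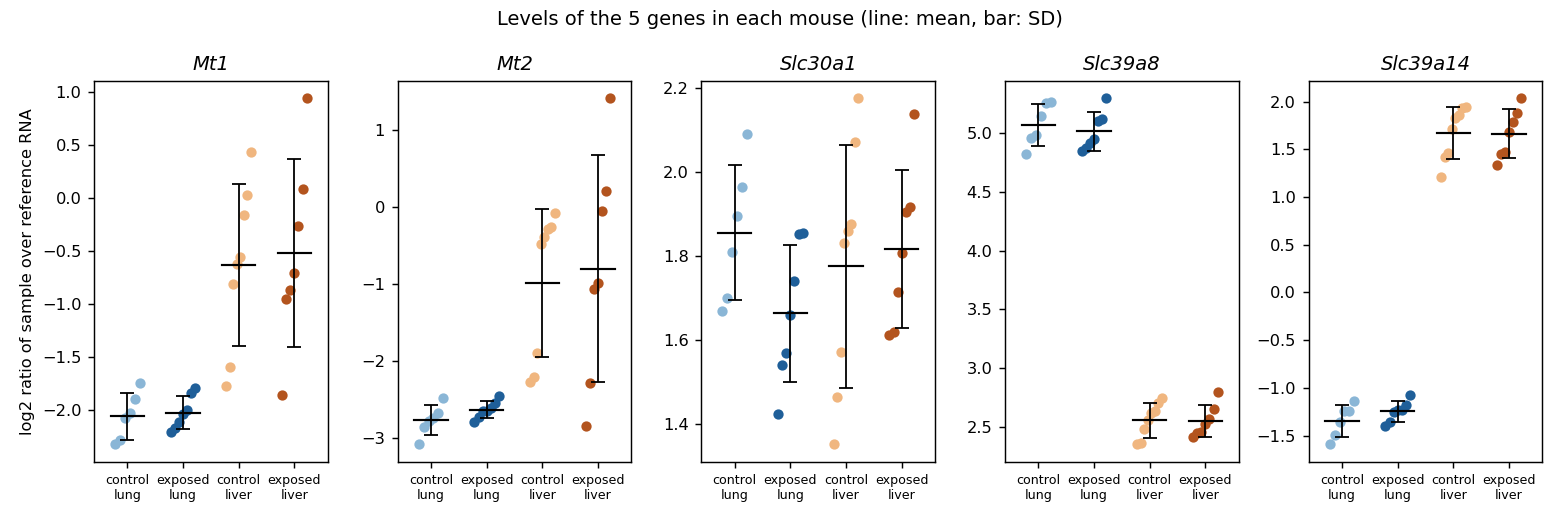
Log2 ratio of sample over reference RNA of the reported probe of each gene (vertical axis, scaled for each gene) in control and exposed lungs and livers, 1 point a mouse, with the mean (line) and SD (bar). Exposed and control points overlap in every panel, the Slc39a8 and Slc39a14 points of lung and liver lie far apart, and the liver points of Mt1 and Mt2 are widely spread in both groups.

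Mt1 in exposed lungs differed from control lungs by less than the spread between mice. Its log2 ratio ran from -2.21 through a median of -2.03 to -1.79 in exposed lungs and from -2.32 through -2.05 to -1.75 in control lungs. The exposed values lay wholly inside the control range. The difference was 0.04 (SE 0.0947, 95% interval -0.17 to 0.24), with an adjusted p of 0.958 in limma and an exact two-sided permutation p of 0.73. As a fold change the interval ran from 0.891 to 1.18.

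In the liver, Mt1 ran from -1.86 through -0.70 to 0.94 in exposed mice and from -1.77 through -0.58 to 0.43 in control mice. Both groups thus covered nearly the same broad range, with 1 exposed mouse above and 1 below all controls. The highest exposed liver had 6.97 times as much Mt1 signal relative to the reference as the lowest, and the corresponding ratio among controls was 4.62. The difference between the groups was 0.11 (SE 0.376, 95% interval -0.68 to 0.91, adjusted p = 1 in limma, exact permutation p = 0.789). As a fold change the interval ran from 0.624 to 1.88, so that these mice did not fix the change of the group mean more closely. The interval is not a detection limit of the adjusted test.

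The liver difference of Mt1 changed sign from slide to slide. It was -0.47 on slide 1, 1.62 on slide 2, -1.29 on slide 3 and 0.38 on slide 4, from 1 exposed mouse on slide 1, 2 on each other slide and 2 controls on every slide. In the lung the within-slide differences were -0.05, 0.13 and -0.09 on slides 1 to 3, and slide 4 held exposed lungs only. The SD between the 10 Mt1 spots of an array had a median of 0.052 and was at most 0.147. The SD between mice was 0.76 in control and 0.89 in exposed livers, and 0.22 in control and 0.16 in exposed lungs.

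For Mt2, the other widely expressed metallothionein, neither difference passed the test. In lungs its log2 ratio ran from -2.80 through -2.65 to -2.46 in exposed mice and from -3.09 through -2.76 to -2.48 in control mice. All but 1 of the exposed lungs lay inside the control range, and 6 of 7 lay above the control mean. The difference was 0.13 (SE 0.0808, 95% interval -0.04 to 0.31), which did not pass the test (adjusted p = 0.763 in limma, exact permutation p = 0.157). When spots with an irregular local background were left out as well, it was 0.19 with an adjusted p of 0.654.

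In livers Mt2 ran from -2.85 through -0.99 to 1.41 in exposed mice and from -2.28 through -0.44 to -0.08 in controls. The exposed livers reached further in both directions, with 3 above and 2 below all controls. The ratio of the highest to the lowest was 19.2 among exposed and 4.58 among control livers. The group means differed by 0.18 (SE 0.56, 95% interval -1.0 to 1.37, adjusted p = 1 in limma, exact permutation p = 0.767). On slides 1 to 4 the difference was -1.77, 2.19, -0.99 and 0.28, with the same signs as for Mt1.

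The same mice were high and low for both metallothioneins in the liver. Exposed mouse 12 was the highest of all livers for Mt1 (0.94) and for Mt2 (1.41). At the other end, exposed mouse 19 had -1.86 and -2.29, exposed mouse 1 had -0.95 and -2.85, control mouse 45 had -1.77 and -2.22, and control mouse 29 had -1.59 and -2.28. Over the 15 livers, after subtraction of the group means, Mt1 and Mt2 correlated with Pearson r = 0.89 (permutation p = 2e-05, adjusted p = 0.00022) and Spearman rho = 0.93 (permutation p = 1e-05, the smallest that the resampling can give, adjusted p = 0.00011). Adjusted values are over 11 relations computed in the same family. Without mice 12 and 19, the farthest from the median of Mt1, r was 0.84 (permutation p = 0.00026), and with slide removed as well as group it was 0.94.

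In the lung the corresponding relation did not pass the adjusted test. Over 13 lungs r was 0.59 (permutation p = 0.0336, adjusted p = 0.0829) and rho 0.51 (permutation p = 0.0801, adjusted p = 0.147). It rested on control mice 29 and 32, the lowest and highest lungs for Mt1, since r was 0.14 without them (permutation p = 0.688). With slide removed it was 0.30, and with each array centered on its median it was 0.97. Whether the lung and the liver relation differ was not tested.

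**Figure D2:**
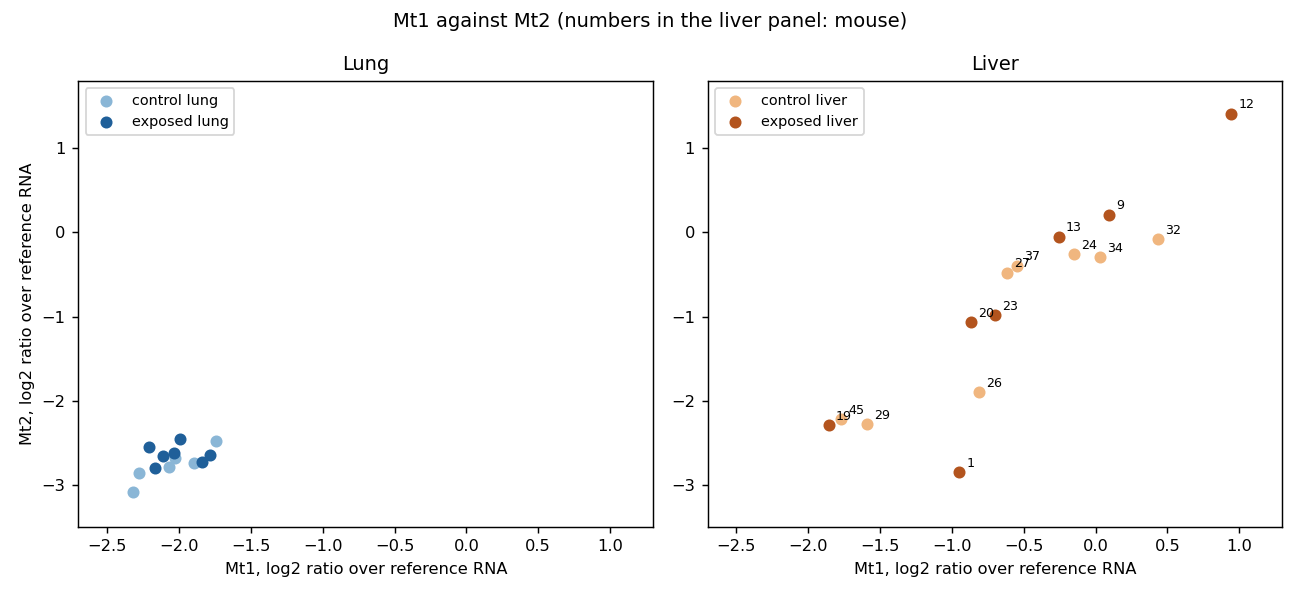
Mt1 (horizontal) against Mt2 (vertical) as log2 ratios over reference RNA in lungs (left) and livers (right) on the same axes, 1 point a mouse, control in pale and exposed in dark colour, with mouse numbers in the liver panel. The lungs form 1 tight group at or below -1.75 on Mt1 and -2.46 on Mt2, whereas the livers of both groups stretch along a diagonal from mice 19, 45 and 29 to mouse 12.

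A spread of this size was rare among liver probes. Over 19412 probes well above background on every array, the SD between mice within groups had a median of 0.124 in lung and 0.153 in liver. It was 0.821 for Mt1 and 1.224 for Mt2 in liver, and 0.242% and 0.0464% of the probes had a larger SD there, the latter being 9 probes. In lung the SD was 0.189 for Mt1 and 0.159 for Mt2, exceeded by 14.5% and 26.6% of the probes. The transporters were not spread in this way: in liver the SD was 0.249 for Slc30a1, 0.265 for Slc39a14 and 0.144 for Slc39a8, and in lung it was between 0.141 and 0.171. These shares describe the arrays and carry no test.

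**Figure D3:**
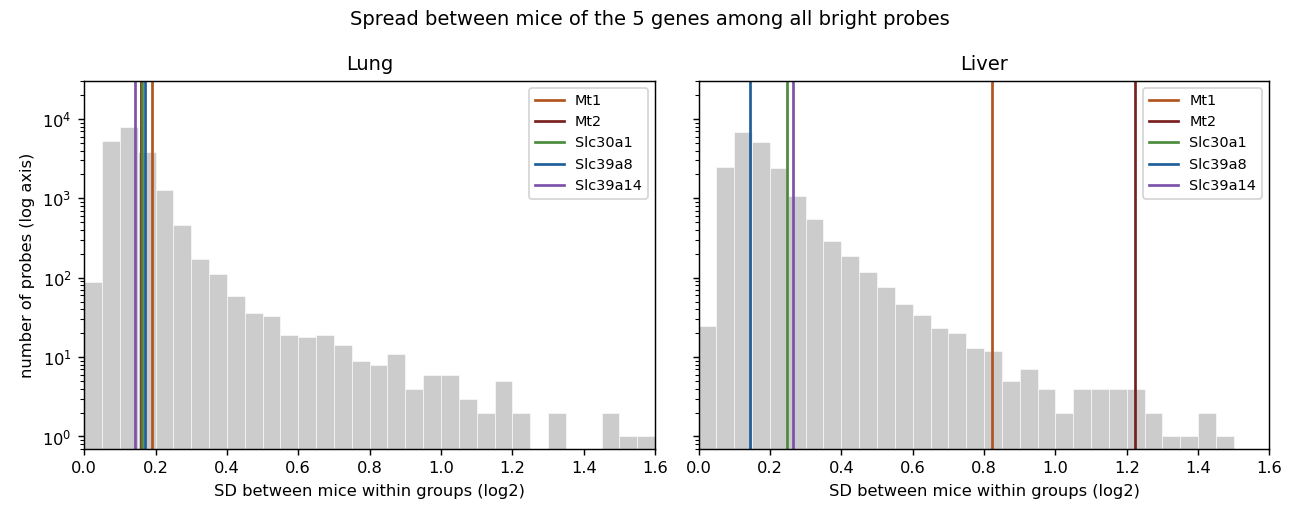
Number of probes (vertical, log axis) by SD between mice within groups on the log2 scale (horizontal) in lung and liver, over 19412 probes well above background on every array, with SDs above 1.6 counted in the last bin. Lines mark the reported probes of the 5 genes: all lie in the bulk of probes in the lung, and Mt1 (0.821) and Mt2 (1.224) lie in the far tail in the liver.

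A relation between the liver and the lung level of a metallothionein in the same mouse was not detected. Over the 12 mice with both tissues, r between lung and liver was 0.39 for Mt1 (permutation p = 0.214, adjusted p = 0.336) and 0.08 for Mt2 (permutation p = 0.804, adjusted p = 0.862), with rho of 0.43 and 0.06. With slide removed, the Mt1 value rose to 0.71 (adjusted p = 0.0333 by permutation) and the Mt2 value to 0.39. That permutation shuffled the 12 mice freely, although removing slide and group ties the values within a slide. Its p can therefore be too small. Without mice 29 and 32 they were 0.06 and -0.55.

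The second Mt1 probe, at chr8:92768988-92769047 of mm7 and designed to an Mt1 cDNA clone, was also widely spread in the liver but ranked the mice differently. It ran from -0.23 through 1.57 to 3.51 in exposed livers and from -0.03 through 1.81 to 3.19 in control livers. Its correlation with the reported Mt1 probe was 0.21 over the 15 livers and 0.27 over the 13 lungs, and with Mt2 0.21 in each tissue. Which part of the gene it reads was not analysed here, and the statements on shared high and low mice therefore hold for the reported Mt1 probe and for Mt2. Its exposure differences were 0.13 in lung and 0.04 in liver, with adjusted p of 0.853 and 1 in limma.

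Slc30a1, the exporter, had a lower mean in exposed lungs on its reported probe, a difference that did not pass the test. Its log2 ratio ran from 1.42 through 1.66 to 1.86 in exposed and from 1.67 through 1.85 to 2.09 in control lungs. Of the exposed lungs, 0 of 7 lay above the control mean, and 4 lay below every control. These counts turn on small gaps. Exposed mice 20 and 23 (1.8551 and 1.8536), on slide 4 without control lungs, lay almost at the control mean of 1.8557. Exposed mouse 12 (1.6603) lay just below the lowest control, mouse 29 (1.6693). The difference was -0.19 (SE 0.0826, 95% interval -0.37 to -0.02, unadjusted p = 0.0344, adjusted p = 0.679 in limma, exact permutation p = 0.0594). On slide 3 it was -0.50, and on slides 1 and 2 it was -0.11 and -0.16. Over the processing alternatives the difference ranged from -0.54 to -0.09, the former with the background model fitted on all spots. The other Slc30a1 probe gave 0.00 (SE 0.0947) in the same lungs.

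In livers Slc30a1 ran from 1.61 through 1.81 to 2.14 in exposed and from 1.35 through 1.84 to 2.18 in control mice, with every exposed value inside the control range. The difference was 0.04 (95% interval -0.21 to 0.29, adjusted p = 1 in limma). Its lung and liver levels in the same 12 mice correlated at r = 0.68 (permutation p = 0.0152, adjusted p = 0.0557) and rho = 0.67 (permutation p = 0.0207, adjusted p = 0.0758), at r = 0.55 without mice 20 and 34 and at 0.82 with slide removed. In the liver Slc30a1 followed Mt1 at r = 0.37 and rho = 0.47 (permutation p = 0.175 and 0.0795), and in the lung at 0.17 and 0.12 (permutation p = 0.565 and 0.698).

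Slc39a8, the importer with the higher level in lung, gave no difference past the test. It ran from 4.85 through 4.95 to 5.30 in exposed and from 4.82 through 5.07 to 5.27 in control lungs, and from 2.41 through 2.52 to 2.80 in exposed and from 2.35 through 2.59 to 2.75 in control livers. In both tissues the groups overlapped nearly completely. The differences were -0.06 in lung (95% interval -0.24 to 0.13, adjusted p = 0.912 in limma) and -0.01 in liver (95% interval -0.16 to 0.14, adjusted p = 1 in limma). The probes of this gene disagreed in the lung. The probe at chr3:135681282-135681341 of mm7 ran from 2.35 to 2.61 in exposed and from 2.16 to 2.40 in control lungs, with 4 of 7 exposed mice above every control, a difference of 0.19 (SE 0.0503, 95% interval 0.08 to 0.30, unadjusted p = 0.00201, adjusted p = 0.281 in limma, exact permutation p = 0.00408). Its reference channel was not well above background on any array. The remaining probe, at chr3:135653845-135653904, gave -0.03 (SE 0.0496).

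Over the 12 mice with both tissues, Slc39a8 in lung and liver correlated negatively, with r = -0.75 (permutation p = 0.00623, adjusted p = 0.0343) and rho = -0.79 (permutation p = 0.00313, adjusted p = 0.0172), and r was -0.70 without mice 1 and 29 (permutation p = 0.0249). With each array centered on its median in place of the intensity-dependent correction, r turned to 0.44 (permutation p = 0.151), and when 1 mouse was left out at a time it stayed between -0.81 and -0.69 with adjusted p from 0.0203 to 0.0722 by permutation, above 0.05 for 8 of the 12 mice. With slide removed it was -0.74.

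Slc39a14, the importer with the higher level in liver, gave none either. Its log2 ratio ran from -1.40 through -1.23 to -1.07 in exposed and from -1.59 through -1.30 to -1.14 in control lungs, and from 1.33 through 1.68 to 2.04 in exposed and from 1.21 through 1.77 to 1.95 in control livers. In lung 5 of 7 exposed mice lay above the control mean and only 1 above every control. The differences were 0.10 in lung (SE 0.0728, 95% interval -0.05 to 0.26, adjusted p = 0.805 in limma) and -0.01 in liver (SE 0.124, 95% interval -0.27 to 0.25, adjusted p = 1 in limma). Its second probe gave 0.07 and -0.03. Slc39a14 and Mt1 correlated at r = -0.58 and rho = -0.62 in lung (permutation p = 0.0377 and 0.0291, adjusted p = 0.0829 and 0.0799) and at 0.13 and 0.17 in liver (permutation p = 0.632 and 0.542). The lung value was -0.12 with slide removed and 0.86 with each array centered on its median. Between lung and liver of the same mouse Slc39a14 gave r = 0.06 and rho = 0.01 (permutation p = 0.862 and 0.991).

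**Figure D4:**
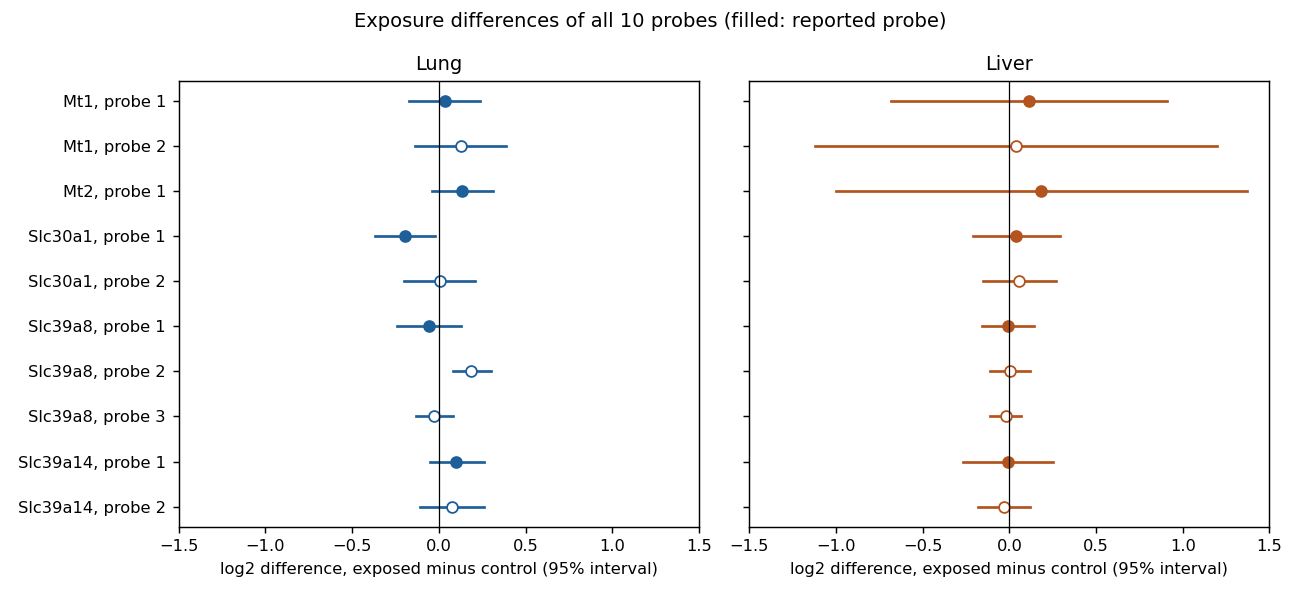
Log2 difference between exposed and control mice (horizontal, point) with its 95% interval (line) for all 10 probes in lung and liver, filled points being the reported probes. Every liver interval spans 0, those of Mt1 and Mt2 being much the widest (-1.0 to 1.37 for Mt2), and in the lung the intervals of 1 Slc30a1 and 1 Slc39a8 probe leave out 0 on opposite sides without passing the adjusted test.

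The tissues themselves differed strongly. Between control lungs and control livers, 59.9% of all 41172 probes differed at an adjusted p under 0.05, 30.2% higher and 29.7% lower in lung, and among the 10 probes 9 differed, 3 higher and 6 lower. Slc39a8 was 5.72-fold higher in lung, a log2 difference of 2.52 (SE 0.0819, adjusted p = 1.29e-21 in limma), and all lungs lay above all livers. With 1 value per gene symbol it was 1.47. One other probe was higher by 1.58. The remaining probe was not well above background in Cy5 in any liver, nor in Cy3 on any array. Its log2 ratio was 0.32 higher in control lungs (adjusted p = 3.2e-07 in limma), and its normalized Cy5 signal alone was 1.31-fold higher. Its median scanner intensity in Cy5 was 88.5 in control lungs and 92 in control livers. The direction for this 1 of the 3 higher probes thus depended on the processing. Slc39a14 was 8.11-fold lower in lung, a difference of -3.02 (SE 0.111, adjusted p = 2.65e-20 in limma), again without overlap, and its second probe gave -1.97.

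Mt1 was 2.69-fold lower in control lungs than in control livers, a difference of -1.43 (SE 0.31, adjusted p = 0.000199 in limma, exact permutation p = 0.00133). The groups met at one point, since the lowest control liver (-1.77) lay just below the highest control lung (-1.75). Mt2 was 3.44-fold lower in lung, a difference of -1.78 (SE 0.455, adjusted p = 0.00114 in limma, exact permutation p = 0.003), with control livers from -2.28 upwards and control lungs up to -2.48. With median centering the Mt2 difference was -2.80. The tests between tissues took the arrays as independent. Every control lung, however, came from a mouse whose liver was among the control livers. With the mouse as a block, the Mt1 and Mt2 differences kept direction and call. Among exposed mice the lowest Mt2 liver, mouse 1 at -2.85, lay below the lowest exposed lung at -2.80. Slc30a1 gave no single answer: its reported probe differed by 0.08 (SE 0.109, adjusted p = 0.557 in limma) and its other probe by -1.06 (SE 0.103, adjusted p = 2.43e-10 in limma). Slides and the version of the scanner software held 1 tissue each and cannot be told apart from tissue.

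In the wider zinc machinery no probe passed for exposure. The lists held 17 probes for 10 Slc30 exporter genes and 19 probes for 14 Slc39 importer genes, the members among them. In limma's test 0 of these probes passed in lung, 0 in liver and 0 for the difference between the effects. At an unadjusted p under 0.05, 2 exporter probes were lower and 2 importer probes higher in lung, against 3.31% lower and 3.75% higher of all probes. These counts include the Slc30a1 and Slc39a8 probes described above. The median log2 difference in lung was -0.02 for the exporters and 0.01 for the importers, against 0.00157 over all probes. Mt3 differed by -0.06 in lung and 0.08 in liver, and the pair of Mt4 probes by -0.03 and -0.06 in lung, none past the test. The 3 probes of Mtf1, the zinc sensor, differed by between -0.02 and 0.03 in lung and between -0.05 and 0.06 in liver. Between control tissues 7 of 17 exporter probes were lower in lung and 1 higher, and 10 of 19 importer probes were lower and 9 higher, against 29.7% lower and 30.2% higher of all probes. Whether the lists differ was not tested.

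**Figure D5:**
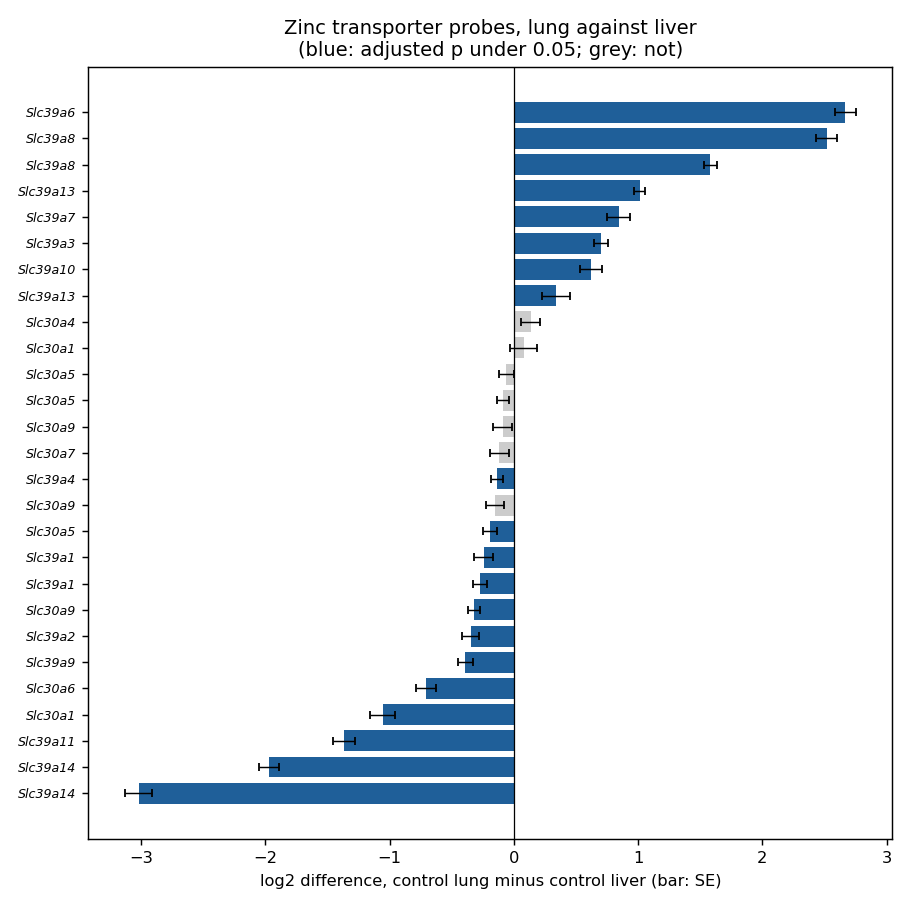
Log2 difference between control lung and control liver (horizontal, with SE) of the 27 Slc30 and Slc39 probes that were well above background in Cy5 on at least 50% of the arrays of each tissue, blue where the adjusted p was under 0.05. Of 20 such differences 8 were higher and 12 lower in lung, with Slc39a8 near the top and both Slc39a14 probes at the bottom.

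Beyond Slc39a8 and Slc39a14, the transporters with the widest gaps, named after their values were seen, included Slc39a6, an importer 2.67 higher in lung on the log2 scale (adjusted p = 4.05e-22 in limma), Slc39a11 (-1.37) and Slc30a10, a manganese exporter. One Slc30a10 probe was not well above background in control lungs and was at least 8.18-fold higher in control livers, where the bound was set in the Cy5 channel alone. The other Slc30a10 probe, well above background in 1 of 13 lungs, differed by -2.15. Mt3 was 0.60 lower in lung, and 1 of 3 Mtf1 probes was 0.99 lower.

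Lists of stress, hormone and cytokine response genes, of acute-phase proteins, and of iron and copper handling genes were examined in the same mice. In the acute-phase list, 4 of 12 genes rose in the exposed lungs: Saa3, an acute-phase protein (2.23 higher, adjusted p = 0.0003 in limma), Lcn2, an iron-sequestering lipocalin (1.71, adjusted p = 2.07e-08), Saa1 (1.19, adjusted p = 0.0104) and Itih4 (0.54, adjusted p = 0.00274), which were 4 of 14 probes against 0.219% of all probes. The other Saa1 probe gave 0.32 (adjusted p = 0.505 in limma). Beside these, the level of the hepatocyte markers ran from 0.89 to 2.90 in exposed and from 0.53 to 1.51 in control lungs. The level of the macrophage markers ran from 2.30 to 2.55 in exposed and from 2.09 to 2.31 in control lungs, with 2 of 9 probes higher, Marco (0.57, adjusted p = 0.00935 in limma) and Cd14 (0.53, adjusted p = 0.0285 in limma). The part of either was not tested. Serpina3n, a protease inhibitor, passed for the difference between lung and liver effects (0.63, adjusted p = 0.0237 in limma) and not in lung alone (adjusted p = 0.0616 in limma). Of the iron and copper list, Steap4, a metalloreductase, rose by 0.70 (adjusted p = 0.00474 in limma), which was 1 of 30 probes against 0.219% of all probes. Its other probe gave 0.37 (adjusted p = 0.165 in limma). At an unadjusted p under 0.05 in limma, 10 of the 30 probes were higher and 1 lower in lung. Of all probes 3.75% were higher and 3.31% lower, and whether the list differs from them was not tested. In the glucocorticoid, interleukin-6 and STAT3, Nrf2 (oxidative stress) and heat shock lists, 0 of 17, 0 of 21, 0 of 20 and 0 of 12 probes passed in lung, with 2, 2, 1 and 1 at an unadjusted p under 0.05, where 7.06% of all probes were. In the liver 0 probes of any of these lists passed.

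The correlations that follow describe these arrays and carry no test. Of 16 Nrf2-list probes well above background on every array, 10 correlated with Mt1 at r above 0.5 over the 13 lungs and 8 with Mt2, against 14.5% and 12.2% of all 19412 probes. Some of these are probes of the same gene. Named after their values were seen, Hmox1, heme oxygenase, gave 0.76 with Mt1 and 0.74 with Mt2, and Txnrd1, thioredoxin reductase, 0.54 and 0.93. In the liver 0 of the 16 did so with either gene. Below -0.5 there were 2 with Mt1 in liver, against 5.45% of all probes, and 0 with Mt2. These 2 were probes of Gsr, named after its values were seen, at -0.53 and -0.56, and its other probe gave -0.41. Of 5 heart muscle marker probes, 4 also correlated with Mt1 above 0.5 in lung, and 1 with Mt2. The level of the whole list of 10 probes ran from 1.29 to 3.68 in control and from 2.41 to 3.90 in exposed lungs. Its part in the relation was not tested, and the lungs share slides and a common reference. In the liver, 0 of 14 glucocorticoid-list probes correlated with Mt1 above 0.5 and 3 below -0.5, where 5.93% and 5.45% of all probes did. These 3 were all probes of Tsc22d3, named after its values were seen, at -0.69, -0.72 and -0.61.

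The genes whose pattern was most like each member, by the smaller of the correlations over 13 lungs and 15 livers among 17978 named probes, were Bphl (0.94 in lung and 0.81 in liver), Btbd6 and Rwdd3 for Mt1, and Zfp306 (0.75 and 0.79), 1500031L02Rik and Rundc1 for Mt2. Mt1 and Mt2 were not picked for each other, since the smaller value counted and theirs was 0.59 in lung, against 0.89 in liver. For Slc30a1 they were Cnot6l (0.71 and 0.72), Phactr4 and 2010203O07Rik, for Slc39a8 Car7 (0.72 and 0.78), Prp2 and Prlr, and for Slc39a14 Wdr45l (0.84 and 0.80), C530043G21Rik and Gcc1. These were picked from many probes for their likeness and carry no test.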

How the data were processed

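Lung and liver mRNA was measured on 28 Agilent 2-color arrays, with Cy5 for the mouse and Cy3 for the reference and no dye swap, and 13 miRNA arrays were not used. Per the file headers, the deposited scanner intensities were made with Feature Extraction 9.5.3.1 (lung) and 10.1.1.1 (liver). The authors' processed table, deposited as log2 ratios after LOWESS per their methods, served as an alternative. Median spot signals less the median local background were corrected with normexp (offset 50) and loess within each array in limma 3.58.1 (R 4.3.3). Spots of a probe were averaged, and the groups of a comparison were fitted with Benjamini-Hochberg adjustment over all probes tested, called under 0.05. Control spots had weight 0. Spots with a scanner mark on the spot itself were left out, and spots with a mark on the local background were kept, a reading chosen after the values were seen. Groups came from the sample titles. Because the mouse numbers tie lung to liver in 12 mice, a mouse block was an alternative, and lung and liver deviations correlated at -0.114 to 0.332 (median 0.106) over 19412 probes. Exact permutation tests accompany single probes, and correlations used 100000 resamples. Within a tissue the exact tests ran over mice, and between tissues over arrays, with the pairing of lung and liver ignored. Alternatives covered background, normalization, filters, slide and each array left out.

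The members and lists were chosen with earlier results of these data known. Genes named are the members, Mt3, Mt4, Mtf1, transporters and genes of lists other than marker lists that passed for exposure or its difference between tissues, marker genes, and 3 most alike genes per member, and exceptions are marked. The promoter search was widened to 280 bases after the first matches were seen. P-values of group differences set the difference against the spread between mice. The limma tests that join lung and liver used 1 spread for both tissues. The variance in liver was 18.9 times that in lung for Mt1 and 59.5 times for Mt2.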

Additional observations from a re-analysis of the deposited data

Results flagged for a closer look

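On the second Slc39a14 probe, exposed liver mouse 19 stood apart from the other 6 exposed livers with a log2 ratio of 1.5, the nearest being 1.19, a gap of 0.602 of the range. It was the 1 such case among 40 sets of a probe in a group, where chance gives about 1 in 20. The reported Slc39a14 probe had no such case.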

How the results depend on the processing

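No exposure or lung-against-liver difference of the 5 genes had an adjusted p under 0.05 in limma under any of 445 tested alternatives (lowest 0.299), and the tissue differences of Mt1, Mt2, Slc39a8 and Slc39a14 kept direction and call in all of theirs. Causes of the following changes were not tested. Probes called in lung numbered 17 with normexp fitted on all spots, 136 when slide entered as a random block and 7 with median centering, and for the lung minus liver effect 6, 12 and, with the scanner's processed signals, 35. Keeping out spots with a marked local background as well changed no call of the 5 genes.

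Over the alternatives other than leaving out an array, lung differences ranged from -0.0888 to 0.145 (Mt1), -0.0222 to 0.2448 (Mt2), -0.5428 to -0.094 (Slc30a1), -0.649 to 0.1519 (Slc39a8) and 0.0193 to 0.3797 (Slc39a14), and lung minus liver effects reached -0.9352 (Slc30a1) and -1.2792 (Slc39a8). The values -0.5428, -0.649, 0.3797, -0.9352 and -1.2792 came with normexp fitted on all spots.

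Some values changed sign. In lung, Mt1 was -0.0109 (Cy5 alone) and -0.0204 (slide fixed), and Slc39a8 0.0374 (median centering) and 0.0337 (1 value per symbol). In liver, Slc30a1 was -0.0137 (Cy5 alone), Slc39a8 0.0187 (no background correction), 0.6301 (normexp on all spots), 0.0298 (processed signals), 0.0868 (median centering) and 0.0261 (authors' table), and Slc39a14 0.3084, 0.1147, 0.0003 and 0.0228 (normexp on all spots, median centering, authors' table, Cy5 alone). With 1 value per symbol the lung minus liver effect was 0.0033 for Mt1 and 0.0412 for Slc39a8. Slc30a1 between tissues was -0.0401 (processed signals), -0.0372 (authors' table) and -0.4878 (1 value per symbol, adjusted p = 4.92e-05 in limma). Within slides the values that moved beyond the spread were 1.6202 and -1.2894 for Mt1 and -1.7721 and 2.1895 for Mt2 in liver, -0.4979 for Slc30a1 in lung and 0.4234 and -0.2682 in liver, 0.1519 and -0.3146 for Slc39a8 in lung and -0.2247 and 0.2302 in liver, and -0.3798 for Slc39a14 in liver.

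With the replicate block (mouse fixed, paired over 12 mice) the lung minus liver effect was 0.1954 for Mt1 and 0.1954 for Mt2, of opposite sign to the unpaired fit, and the block changed no call.

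Leaving out 1 array at a time gave ranges in lung of -0.0172 to 0.0979 (Mt1), 0.0706 to 0.1921 (Mt2, lowest without control mouse 29), -0.2297 to -0.1451 (Slc30a1), -0.1084 to -0.0189 (Slc39a8, without control mice 32 and 29) and 0.0516 to 0.1417 (Slc39a14, lowest without control mouse 34), in liver of -0.1281 to 0.3388 (Mt1), -0.1849 to 0.5259 (Mt2), -0.0198 to 0.0982 (Slc30a1), -0.0502 to 0.0189 (Slc39a8) and -0.0751 to 0.0454 (Slc39a14), and for the lung minus liver effect of -0.303 to 0.1639 (Mt1) and -0.392 to 0.3188 (Mt2).

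Correlations moved most with median centering: Slc39a8 lung to liver 0.439, Slc39a14 lung to liver 0.845, and in lung Mt1 with Mt2 0.972, with Slc39a14 0.858 and with Slc30a1 0.913. With slide removed, lung to liver was 0.71 for Mt1 and 0.821 for Slc30a1. Without background correction it was 0.701 for Slc30a1 and -0.042 for Slc39a14, and in the authors' table -0.041 for Slc39a14, where Mt1 with Slc30a1 in lung was -0.003. Leaving out 1 mouse gave 0.415 to 0.686 (Mt1 with Mt2 in lung) and, lung to liver, 0.55 to 0.761 (Slc30a1), -0.808 to -0.691 (Slc39a8), -0.17 to 0.335 (Mt2) and -0.147 to 0.275 (Slc39a14). Mt1 with Mt2 in liver kept its call in all alternatives run, from 0.856 to 0.947. Signal over background limits the third Slc39a8 probe, and the spread between mice limits the liver metallothioneins.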
